A study of Mus musculus with 8 samples.

Results

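The neural progenitor and proneural factors described here are 9 genes, Sox1, Sox2, Sox3, Sox21, Pax6, Neurog1, Neurog2, Nes and Msi1, among 19057 genes named by the probes of the arrays. They were chosen by name with earlier results of these data known, and every probe that the platform annotation assigns to them was read. The 9 genes had 17 probes, of which 14 could be traced to their intensity values. The cells came from E12.5 mouse embryos of strain C57BL/6J;129, a stage at which the sclerotome condenses into cartilage beside the neural tube and the dorsal root ganglia. The vertebral column was dissected out and dissociated, and EGFP-positive cells were collected by fluorescence activated cell sorting (FACS). Each genotype was measured on 4 Illumina BeadChips described as biological replicates. How many embryos made up a replicate is not stated in the labels or the methods, and p-values therefore measure only the spread between these samples.

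Both groups carried EGFP at the locus of Bapx1, the homeodomain transcription factor of the sclerotome whose current symbol is Nkx3-2. In the wildtype group (Bapx1 +/tm2.Tlu) the reporter was linked through an internal ribosome entry site to the 3′ untranslated region, and the Bapx1 reading frame was left intact. In the null group (Bapx1 tm4.Tlu/tm4.Tlu) EGFP was inserted directly after the start codon with loss of some endogenous bases. EGFP in both groups depended on the Bapx1 promoter, and the groups differed in reporter copy number and in the mode of EGFP translation as well as in Bapx1. A change in expression cannot be told apart from a change in the population that the sort collected.

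The SoxB1 factors Sox1, Sox2 and Sox3 are known to keep cells of the neural tube in the progenitor state, and the related factor Sox21 is known from chick to act against them and promote differentiation. Pax6 is a paired box and homeodomain factor that patterns neural progenitors, and the proneural basic helix-loop-helix factors Neurog1 and Neurog2 start neuronal differentiation in the spinal cord and the sensory ganglia. Nes encodes nestin, an intermediate filament protein of neural progenitors that is also made in developing muscle and vessels, and Msi1 encodes Musashi 1, an RNA-binding protein of neural progenitors. Most of these genes are not regarded as markers of sclerotome, so their detection was examined on each array before any comparison.

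Levels are given as log2 intensity after background modelling and quantile normalization, and a probe was called detected on an array when its detection p-value was below 0.05. Between 41% and 45.8% of all probes were detected per array. Wildtype replicate 2 and null replicate 1 stood apart, with mean correlations with their own group of 0.969 and 0.972. The range was 0.979 to 0.981 among the rest of the wildtype arrays and 0.984 to 0.985 among the rest of the null arrays. Null replicate 1 correlated at 0.976 with the wildtype arrays. Results that rest on these arrays are given with and without them. The words wildtype and null below follow the labels of the arrays.

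The targeted gene was measured by 2 probes, and the files do not say whether either lies in the bases lost from the null allele, so these probes may check no label. The intensity of Nkx3-2 probe ILMN_2687592 was 0.7, 1.4, 2.5 and 8.1 in the wildtype arrays and 21.8, 219.3, 98.8 and 236.2 in the null arrays. It was detected on 0 of 4 wildtype arrays and on 4 of 4 null arrays. With wildtype set no lower than the dimmest detected level, its null mean was 3.67-fold higher, a value that carries no sampling error. The fitted log2 difference was 2.22 with a confidence interval of 1.32 to 3.13 (limma, adjusted p = 0.0435). Only probes detected on at least 4 arrays were tested. This probe entered the test only through the arrays on which it was high, so its place there is not independent of its difference. Without this filter its adjusted p was 0.105 (limma). The intensity of probe ILMN_2687594 was 4.0, -5.9, -9.9 and -4.6 in wildtype and 8.7, 232.0, 83.2 and 198.7 in null, where it was detected on 3 of 4 arrays.

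Few probes of the 9 genes rose above background. Of the 14 traced probes, 3 were detected on all 8 arrays (Sox21 ILMN_1254295, Nes ILMN_2703267 and Msi1 ILMN_1251865), and 6 were detected on 0 arrays. Sox1, Sox3 and Pax6 had no traced probe detected on any array. The number of detected probes per array was 4, 4, 3 and 4 in wildtype replicates 1 to 4 and 6, 5, 6 and 5 in null replicates 1 to 4. Every null array had more of these probes above background than any wildtype array, while the share of all probes detected was 41% to 45.6% in wildtype and 43.3% to 45.8% in null. The mean over 4 null arrays was above the wildtype mean for 8 of the 14 traced probes and below it for 6, values that include probes within the background.

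**Figure D1:**
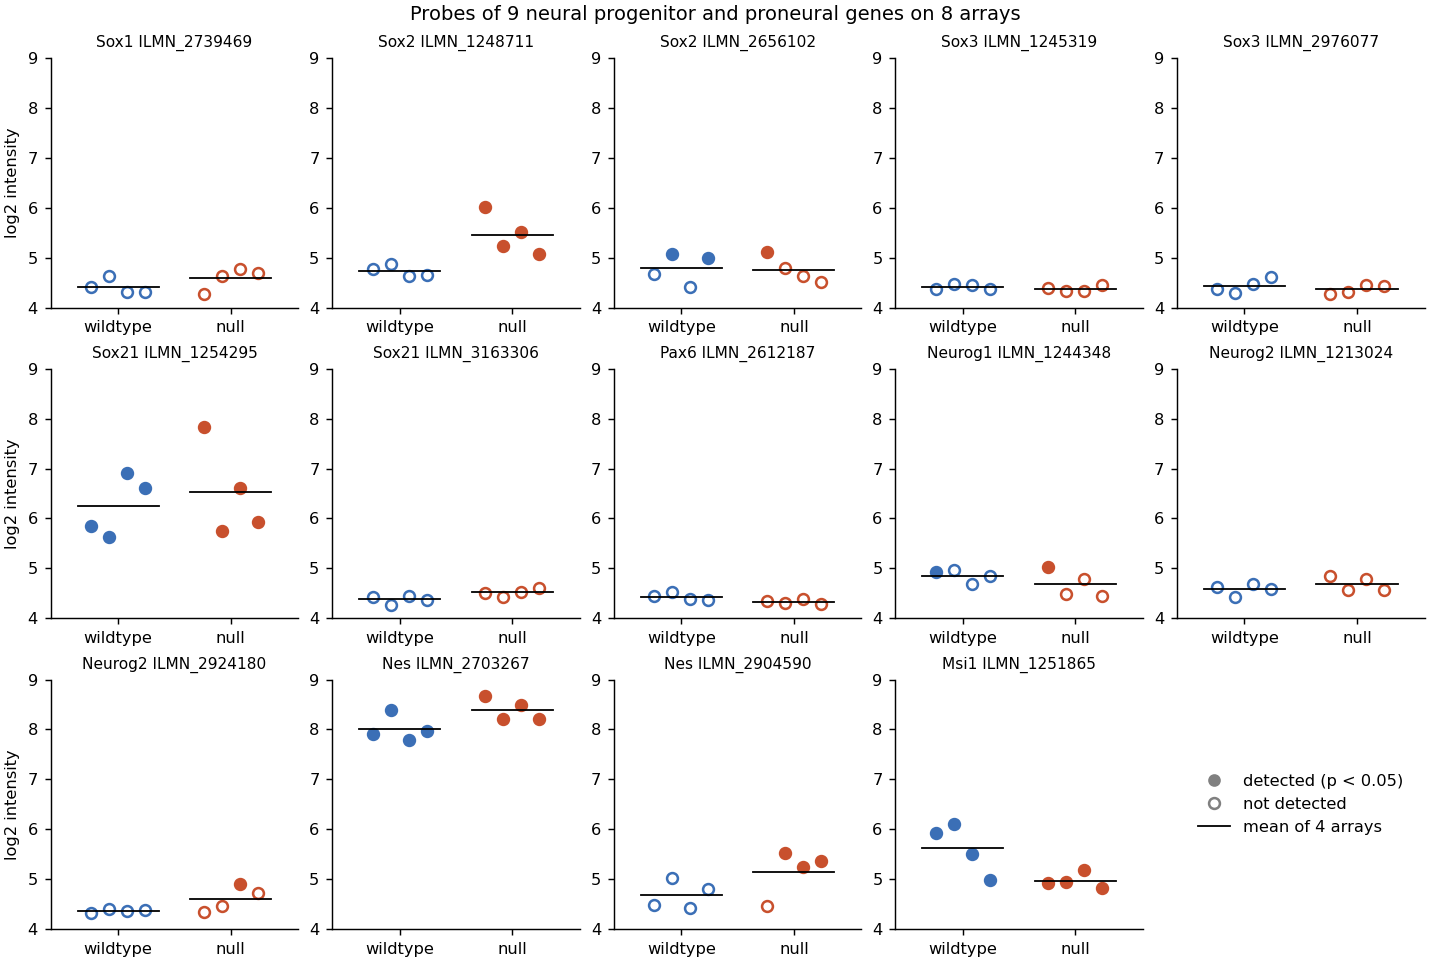
Level of each of the 14 traced probes on each array (vertical axis, log2 intensity, the same range in every panel), with the 4 wildtype arrays in blue and the 4 null arrays in orange, in the order of replicates 1 to 4. Filled points were detected at p below 0.05, open points were not, and lines are means of 4 arrays. Most panels lie flat at the background level, and the first Sox2 panel is open in wildtype and filled in null.

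A comparison between genotypes was made for probes detected on at least 4 of 8 arrays. This filter left 4 of the 17 probes, 1 each for Sox2, Sox21, Nes and Msi1, and 13 probes were not tested. At an adjusted p-value below 0.05 (limma with Benjamini-Hochberg adjustment over all 19965 tested probes), 0 of the 4 were called, beside 0.781% of all tested probes. Unadjusted p-values were below 0.05 for 3 of the 4 (Sox2, Msi1 and Nes), beside 21.7% of all tested probes. The wildtype and null values did not overlap for 1 of the 4, the Sox2 probe, beside 10.8% of all tested probes. Sox2 passed the filter only through the arrays on which it was high, so its place among the tested probes is not independent of its difference.

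Among the SoxB1 factors, the Sox2 probe ILMN_1248711 had intensities of 11.5, 10.4, 6.6 and 5.5 in wildtype replicates 1 to 4 and of 36.4, 28.7, 36.3 and 23.7 in null replicates 1 to 4. All 4 null values lay above all wildtype values, a pattern that 4.76% of all tested probes shared. On the log2 scale the levels were 4.77, 4.88, 4.63 and 4.66 in wildtype, none detected, and 6.01, 5.24, 5.52 and 5.08 in null, all detected. The means were 4.74 ± 0.11 in wildtype and 5.46 ± 0.41 in null (SD, n = 4 each). The wildtype level is therefore a bound. With wildtype set no lower than the dimmest detected level, the null mean was 1.48-fold higher, a value that carries no sampling error. The fitted difference was 0.73 with a 95% confidence interval of 0.30 to 1.15, and it did not pass the threshold (limma, adjusted p = 0.0941).

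The call for Sox2 turned on null replicate 1, whose level was the highest of the group. Without this array the difference was smaller, 0.54, and the adjusted p was 0.0306 (limma), in a fit that called 16% of all tested probes. Without both arrays that stood apart the difference was 0.59 and the adjusted p was 0.0223 (limma), in a fit that called 20.3%. With weights per array, which gave wildtype replicate 2 a weight of 0.313 and null replicate 1 a weight of 0.238, the difference was 0.56 and the adjusted p was 0.0128 (limma), and 31% of all tested probes were called. In each of these fits the share of all probes that passed rose as well. With any 1 array other than null replicate 1 left out, Sox2 did not pass (limma, adjusted p = 0.122 to 0.215). Without the detection filter, which Sox2 passed only through the arrays on which it was high, its adjusted p was 0.164 (limma).

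The other Sox2 probe, ILMN_2656102, did not show the same pattern. Its levels were 4.42 to 5.08 in wildtype and 5.11, 4.80, 4.64 and 4.51 in null replicates 1 to 4, and it was detected on wildtype replicates 2 and 4 and on null replicate 1. The groups overlapped over nearly their whole range, the means differed by -0.03, and the probe was not tested. The positions of the probes on the transcript are not given in the files, so the disagreement between the 2 Sox2 probes was not examined further.

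The other SoxB1 factors stayed at background. Sox1 was read at 4.42, 4.63, 4.31 and 4.31 in wildtype and at 4.28, 4.64, 4.78 and 4.70 in null, detected on 0 of 8 arrays. The lowest detection p-value of Sox1 was 0.063, on null replicate 3. Both probes of Sox3 were also detected on 0 of 8 arrays, with levels of 4.37 to 4.48 in wildtype and 4.33 to 4.45 in null for ILMN_1245319 and of 4.30 to 4.61 and 4.28 to 4.45 for ILMN_2976077. The lowest level of any detected probe was 4.80 to 5.04, depending on the array, and a difference below that level was not detectable on these arrays.

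Sox21 was detected on all 8 arrays by probe ILMN_1254295. Its levels were 5.85, 5.63, 6.91 and 6.62 in wildtype and 7.84, 5.75, 6.61 and 5.93 in null. Null replicate 1 was the highest of all arrays, wildtype replicate 3 was next, and the remaining arrays of both groups were interspersed. The means were 6.25 ± 0.61 and 6.53 ± 0.95 (SD, n = 4 each), and the difference of 0.28 had an interval of -0.73 to 1.29 (limma, adjusted p = 0.737). This interval holds a rise and a fall of more than 1.21-fold, the fold of the means. Without null replicate 1 the difference turned to -0.16 (limma, adjusted p = 0.78), without both arrays that stood apart it was -0.36 (limma, adjusted p = 0.427), and with weights per array it was -0.49 (limma, adjusted p = 0.249).

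A second Sox21 probe, ILMN_3163306, was detected on 0 of 8 arrays, with levels of 4.27 to 4.45 in wildtype and 4.42 to 4.61 in null. A further Sox21 probe could not be traced. The 2 traced probes of Sox21 thus disagreed on whether the gene was above background in any array. The file names no transcript for either.

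**Figure D2:**
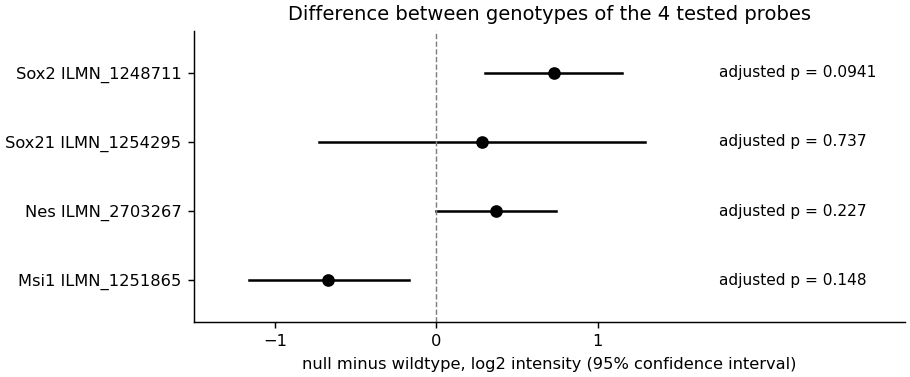
Null minus wildtype difference in log2 intensity (horizontal axis) of the 4 tested probes, with points for the difference and lines for its 95% confidence interval from the limma fit on 8 arrays. The intervals of Sox2 (0.30 to 1.15) and Msi1 (-1.16 to -0.17) leave out 0, that of Sox21 spans it, and each adjusted p-value is above 0.05.

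The patterning factor Pax6 was not detected on these arrays. Its traced probe ILMN_2612187 was read at 4.37 to 4.53 in wildtype and 4.29 to 4.38 in null, and it was detected on 0 of 8 arrays. The proneural factors were at the edge of detection. Neurog1 probe ILMN_1244348 was read at 4.92, 4.96, 4.69 and 4.85 in wildtype and at 5.02, 4.48, 4.78 and 4.44 in null, and it was detected on wildtype replicate 1 and null replicate 1 only.

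Neurog2 probe ILMN_2924180 was read at 4.31, 4.39, 4.36 and 4.37 in wildtype and at 4.33, 4.45, 4.91 and 4.73 in null, and it was detected on null replicate 3 only. The other Neurog2 probe, ILMN_1213024, was detected on 0 of 8 arrays, with levels of 4.42 to 4.68 in wildtype and 4.56 to 4.84 in null. Neither proneural factor passed the filter, and no comparison between genotypes was made for them. The 6 probes that were detected on 0 arrays lay between 4.27 and 4.84 on the log2 scale, from background-subtracted intensities of -8.1 to 12.3.

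The progenitor filament gene Nes was detected on all 8 arrays by probe ILMN_2703267. Its levels were 7.91, 8.38, 7.79 and 7.96 in wildtype and 8.66, 8.20, 8.48 and 8.20 in null. Wildtype replicate 2 lay above null replicates 2 and 4, and the other wildtype arrays lay below every null array. The means were 8.01 ± 0.26 and 8.38 ± 0.23 (SD, n = 4 each), a 1.3-fold difference. The difference of 0.37 had an interval of 0.00 to 0.74 and did not pass the threshold (limma, adjusted p = 0.227). Without both arrays that stood apart the difference was 0.40 and the adjusted p was 0.0485 (limma). That fit called 20.3% of all tested probes. The difference was 0.28 without null replicate 1 alone (limma, adjusted p = 0.248) and 0.50 without wildtype replicate 2 alone (limma, adjusted p = 0.141). With weights per array it was 0.34 (limma, adjusted p = 0.0506). With scaling by the median absolute deviation, which moved the median difference over all probes from -0.04 to -0.26, the difference of Nes was 0.04 (limma, adjusted p = 0.93).

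A second Nes probe, ILMN_2904590, was read at 4.48, 5.03, 4.41 and 4.81 in wildtype, none detected, and at 4.45, 5.53, 5.24 and 5.37 in null. It was detected on null replicates 2, 3 and 4, and it was not tested because it missed the minimum of 4 arrays. The means of this probe were 4.68 ± 0.29 and 5.15 ± 0.48 (SD, n = 4 each), and the groups overlapped. With wildtype set no lower than the dimmest detected level, the null mean was 1.19-fold higher, a value that carries no sampling error. On null replicate 1 this probe was at background, while the first Nes probe was at its highest level there.

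Msi1 had a lower mean in null in the main fit and in the 21 alternatives, and of the other tested members Sox21 had one only in the 3 fits given here that left out or weighted down null replicate 1. Its probe ILMN_1251865 was read at 5.93, 6.10, 5.51 and 4.99 in wildtype and at 4.93, 4.94, 5.18 and 4.83 in null, detected on all 8 arrays. Detection was marginal on wildtype replicate 4 (detection p-value 0.0385) and on null replicates 1, 2 and 4 (0.0395, 0.0438 and 0.0449). The null level thus lay near background, which limits the fold. Wildtype replicates 1, 2 and 3 lay above every null array, and wildtype replicate 4 lay within the null range. The means were 5.63 ± 0.49 and 4.97 ± 0.15 (SD, n = 4 each), so that the level was 1.59-fold higher in wildtype. The difference of -0.67 had an interval of -1.16 to -0.17 and did not pass the threshold (limma, adjusted p = 0.148). With weights per array the difference was -0.59 and the adjusted p was 0.0286 (limma). That fit called 31% of all tested probes. Without wildtype replicate 4 the difference was -0.88 and the adjusted p was 0.0858 (limma). It was -0.51 without wildtype replicate 2 (limma, adjusted p = 0.232) and -0.65 without null replicate 1 (limma, adjusted p = 0.11). Without both arrays that stood apart it was -0.50 (limma, adjusted p = 0.154). The other Msi1 probe, ILMN_1231287, could not be traced and was not detected on any wildtype array or on null replicates 1 to 3.

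**Figure D3:**
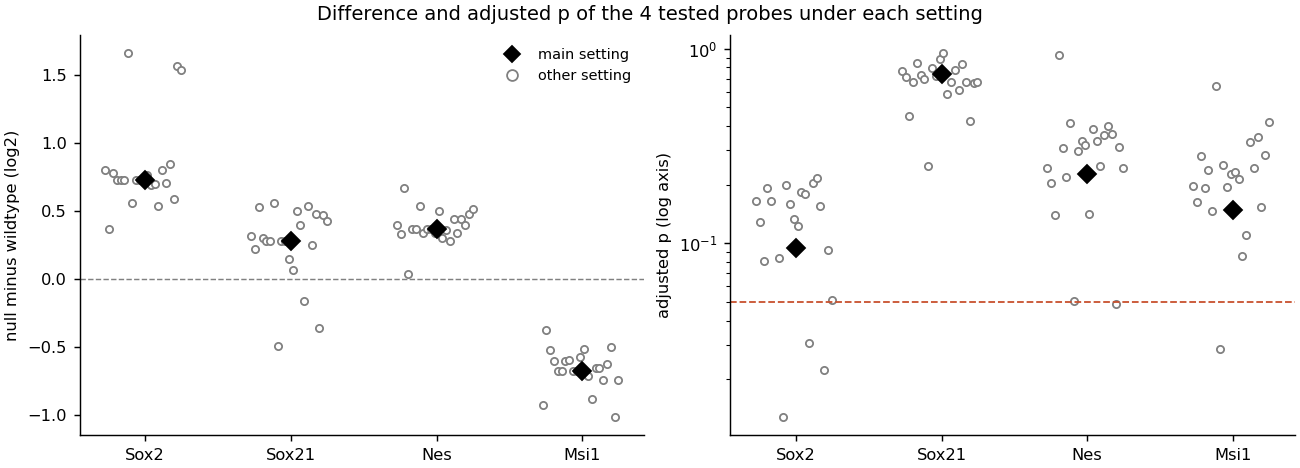
Null minus wildtype difference in log2 intensity (left) and adjusted p-value on a log axis (right) of the tested Sox2, Sox21, Nes and Msi1 probes, with a diamond for the main setting and an open circle for each other setting. The dashed line at right marks the threshold of 0.05, and the only circles below it are 3 for Sox2, 1 for Nes and 1 for Msi1.

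The genes whose tested probe followed a member most closely over the 8 arrays were found among 10951 genes as those with the smallest root mean square difference after each probe was centred on its own mean. The 5 genes nearest to Sox21 were Sln, which encodes sarcolipin (0.163), Ms4a7 (0.223), the serotonin transporter gene Slc6a4 (0.226), Ctla2b (0.228) and the fast muscle myosin light chain gene Mylpf (0.248). Sln was read at 5.29, 4.75, 5.84 and 5.69 in wildtype and at 6.89, 5.13, 5.87 and 5.20 in null, with null replicate 1 the highest as for Sox21. The tested genes of a skeletal muscle list had mean levels of 6.17 to 6.90 in wildtype and 6.70 to 7.95 in null, and the highest value was again null replicate 1. Its part in the level of Sox21 was not tested.

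The 5 genes nearest to Msi1 were Lpar2 (0.136), Ccdc124 (0.162), D130007C19Rik (0.166), Gm36027 (0.171) and the mRNA-binding protein gene Igf2bp1 (0.176). Lpar2, a lysophosphatidic acid receptor gene, was read at 7.03, 7.18, 6.63 and 6.45 in wildtype and at 5.99, 6.03, 6.23 and 6.14 in null. As for Msi1, wildtype replicate 2 had its highest level and wildtype replicate 4 its lowest level among the wildtype arrays. The 5 genes nearest to Nes were Grrp1 (0.104), the integrin gene Itga8 (0.105), the squalene epoxidase gene Sqle (0.111), Epgn (0.113) and Tppp3 (0.115). These distances describe 8 arrays that share 2 genotypes and 2 arrays that stood apart.

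The rest of the neural progenitor programme was read from lists of related genes, with 1 probe per gene. Of 17 factors of the spinal progenitor domains, 6 were tested, and 2 of the 6 were lower in null, 0 were higher and 4 were not called, beside 0.396% of all tested probes called lower and 0.386% called higher. The floor plate and ventral progenitor factor Nkx2-2 was lower by 2.4-fold (6.23 ± 0.11 in wildtype and 4.97 ± 0.25 in null, SD, n = 4 each, limma, adjusted p = 0.00755). Nkx2-2 was detected on 2 of 4 null arrays, so its null level lay near background, which limits the fold. Nkx6-1 was also lower by 2.4-fold (9.81 ± 0.31 and 8.55 ± 0.21, SD, n = 4 each, limma, adjusted p = 0.0169). The median difference over the 6 genes was 0.43, opposite in sign to both calls, and over all tested probes it was -0.04. The count of called genes in this list was 0 with the replicate block and 1 without null replicate 2, 3 or 4. Olig2, Nkx6-2, Nkx2-9 and Pax3 of this list had traced probes detected on 0 arrays.

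Of 18 other proneural and neurogenic factors, 9 were tested and 0 were called, while 4 had unadjusted p-values below 0.05, all with higher means in null, beside 21.7% of all tested probes in either direction. The median difference of the 9 was 0.47. The zinc finger factors St18 (1.16, limma, adjusted p = 0.113) and Myt1 (1.17, limma, adjusted p = 0.126) had the smallest p-values. Of 20 other neural progenitor genes, 14 were tested and 0 were called, with unadjusted p-values below 0.05 for 5 that had higher means in null and 1 that had a lower mean, against the same 21.7%. Vim, which encodes the filament partner of nestin, differed by 0.58 (limma, adjusted p = 0.123), and the glutamate transporter gene Slc1a3 differed by 0.39 (limma, adjusted p = 0.149). The median difference of the 14 was 0.22, and that of the 4 tested members was 0.33. These lists and the members were described by counts and medians, with no test of a list.

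Markers of other cell types were read on the same arrays. Of 20 neuron markers, 16 were tested, 1 was called higher in null (the homeobox gene Lhx5, limma, adjusted p = 0.0496) and 15 were not called, with a median difference of 0.98. Of all tested probes 0.386% were called higher. Unadjusted p-values were below 0.05 for 12 of the 16, all with higher means in null, beside 21.7% of all tested probes in either direction. Lhx5 was detected on 0 of 4 wildtype arrays and 4 of 4 null arrays, so it entered the test only through the arrays on which it was high. The count of called neuron markers was 0 with the replicate block and without any 1 of wildtype replicates 1, 3 and 4 and null replicates 2, 3 and 4, and it was 5 without null replicate 1. The mean level of the 16 was 6.21 to 7.24 in wildtype and 7.36 to 8.21 in null, without overlap, and it was above 8 in null replicates 1 and 3, the arrays on which the first Sox2 probe was also highest. Among defining neuron markers Nefl and Snap25 had traced probes detected on 0 arrays, and Tubb3 was detected on 1. Null replicates 1 and 3 were also the highest null arrays for skeletal muscle markers (7.95 and 7.39), neural crest markers (8.43 and 8.16) and other proneural factors (6.50 and 6.36), so this order of the arrays was shared by several lists. The part of any of these cell types in the Sox2 level was not tested.

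Endothelial markers had mean levels of 5.17 to 6.17 in wildtype and 6.23 to 6.89 in null over 10 tested genes. Of these 1 was called higher, the receptor gene Tek (1.61, limma, adjusted p = 0.0435), beside 0.386% of all tested probes. The count of called endothelial markers was 0 with the replicate block, with no filter, with a floor of 16 and without any 1 of the arrays other than null replicate 1, and it was 4 without null replicate 1. Pericyte and smooth muscle markers had mean levels of 6.77 to 7.14 and 7.02 to 7.47 over 6 tested genes, with 0 called. Nestin is also made in vessel walls, and the part of these cells in the Nes level was not tested. Of 3 tested markers of neural crest and Schwann cell precursors, 1 was called higher, beside the same 0.386%. It was the neurotrophin receptor gene Ngfr (0.82, limma, adjusted p = 0.0149). The glial and neural crest factor Sox10 had the opposite direction (-0.64, limma, adjusted p = 0.108), and Tfap2a differed by 0.77 (limma, adjusted p = 0.13). The count of called genes was 0 with the replicate block and without wildtype replicate 3, null replicate 3 or null replicate 4, and the mean level of the 3 was 7.50 to 8.02 in wildtype and 7.99 to 8.43 in null. Of 8 tested skeletal muscle markers and 3 tested blood cell markers, 0 were called, and the mean level of the blood cell markers was 7.66 to 10.56 in wildtype and 7.89 to 8.60 in null.

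The markers of the labelled tissue were present, and 13 of the 13 sclerotome and cartilage genes with a probe passed the detection filter. Of these, 7 were called lower in null, 0 were called higher and 6 were not called, beside 0.396% of all tested probes called lower. The median difference was -1.04. The count of called genes was 0 with the replicate block, 3 without wildtype replicate 1 or null replicate 2, and 1 without any 1 of wildtype replicates 3 and 4 and null replicates 3 and 4. It was 6 without wildtype replicate 2 and 9 without null replicate 1. In bulk samples fewer cells of a type and less RNA per cell cannot be told apart. The same holds for the levels of the 9 genes, which are averages over all cells that passed the sort.

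**Figure D4:**
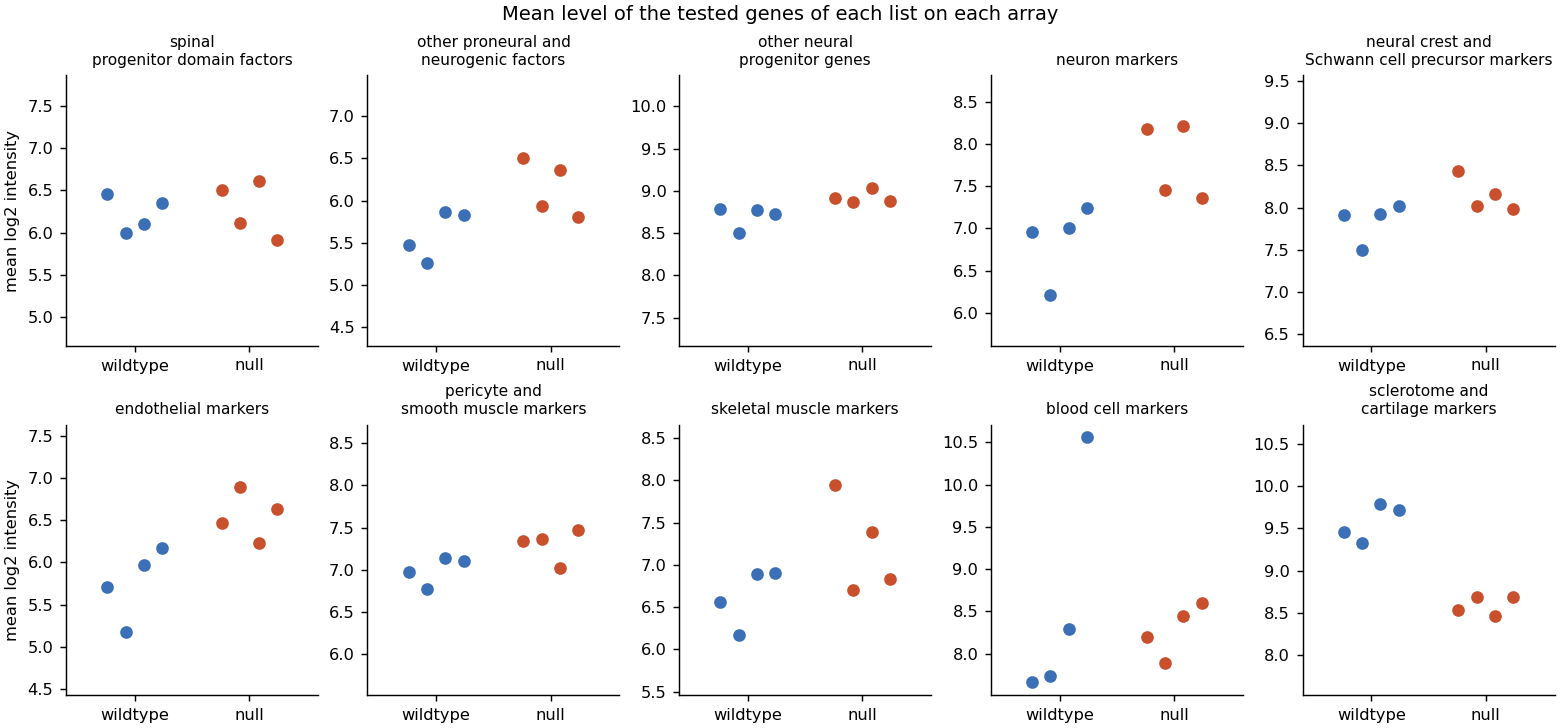
Mean log2 intensity (vertical axis, a span of the same size in every panel) of the tested genes of each list on each array, with 4 wildtype arrays in blue and 4 null arrays in orange in the order of replicates 1 to 4. Neuron markers, endothelial markers and other neural progenitor genes lie higher in the null arrays, and sclerotome and cartilage markers lie lower. The lists of spinal progenitor domain factors and other proneural factors overlap between genotypes.

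The promoters of the members were searched for the hexamers TAAGTG and TGAGTG on both strands, the letters that the study names as the binding motif of Bapx1. The window ran from 250 bases before to 50 bases after the start of each gene in RefSeq, and it was given for 7 of the 9 genes (8 promoters, since Pax6 has more than 1 start). The letters were found in 2 of the 8 promoters, those of Pax6 and Sox21, and in 23.9% of 32851 promoters of all genes. All 3 matches were to TGAGTG or its reverse complement CACTCA, shown in capitals in the lines that follow, which serve to show where the letters lie in a member without and a member with a detected probe. In assembly GRCm38.p6 the Pax6 window shown, the match with its flanking bases, is chr2:105682213-105682235 on the plus strand, and the match in it starts 243 bases before the gene start. The Sox21 windows lie on the minus strand at chr14:118237132-118237157, with the match starting 117 bases before the gene start, and at chr14:118237008-118237033, with the match starting 7 bases after it. A match describes letters only. Pax6 was not tested between genotypes, and Sox21 did not pass the test.
Pax6: tctcgtcTGAGTGatctacaaat
Sox21 before the start: cctaaacctgCACTCAaagtgaaaaa
Sox21 after the start: tatacacacaCACTCAcacacggccg

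For 3 probes, Msi1 ILMN_1231287, Pax6 ILMN_2504978 and Sox21 ILMN_2721489, no single intensity row could be assigned. Each belonged to a set of 5494 rows that could not be told from each other because their intensity was at or below 1 on the 7 arrays that both deposited tables share. In that set 0 rows were detected on any of these arrays, and 1 was detected on null replicate 4. The 3 probes were therefore not detected on the 4 wildtype arrays and on null replicates 1 to 3.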

How the data were processed

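EGFP-positive cells sorted from the vertebral column were measured on 8 arrays, 4 wildtype and 4 null by their labels. The authors prepared biotinylated cRNA and exported background-subtracted intensity values from GenomeStudio (version not stated). The deposited table also holds a detection p-value per probe, written as 1 minus p and turned back here. A second deposited table holds log2 values centred per array with 1 baseline removed per probe. Which arrays set that baseline is not stated, and its direction follows the labels. Its column medians were -0.128, 0.165, 0 and 0.143 in wildtype and 0, 0, -0.165 and -0.086 in null.

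The intensity table names probes by array address only. Identifiers were assigned by comparing these values with those of the log2 table (tolerance 0.001, largest deviation 2.8e-06), which traced 35665 of 45281 probes (78.76%). The log2 columns of null replicates 2, 3 and 4 hold null replicates 1, 2 and 3 of the intensity table, whose numbers are used here. In the platform annotation 34885 probes have 1 gene, 18 have several and 10378 are not listed, and the last 2 kinds were left unnamed.

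Values were corrected with normexp (offset 16, negative controls inferred from the detection p-values), quantile normalized and put on the log2 scale with limma 3.58.1 and statmod 1.5.0 in R 4.3.3. The test covered the 19965 probes whose detection p was below 0.05 on 4 or more of the 8 arrays. lmFit and eBayes gave the difference of null minus wildtype, and an adjusted p below 0.05 was called. Where no array of a group detected a probe, the fold was set as a bound: the dim group was taken on each array at its own level or at that of the dimmest detected probe, whichever was higher. This bound is a fold between means and carries no sampling error. The number of arrays limits the precision. The procedure was tested on simulated data. Python 3.11.15, pandas 2.3.3 and matplotlib 3.10.9 were used for matching and figures.

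The members and gene lists were chosen with earlier results of these data known. Named genes were all members, Nkx3-2, in each list up to 4 called genes or, with 0 called, the 2 of smallest p, and the 5 nearest genes of each of the 3 members of largest SD detected on all arrays. Genes of a list detected on 0 or 1 arrays, and Sox10 and Tfap2a, were named after their values were seen. Alternatives covered the background, scaling, filter, the log2 table, array weights, moderation, a replicate block and leaving out each array. Settings that leave out both arrays that stood apart, or that use a floor of 1 with and without the further array of the log2 table, were added after seeing the data.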

Additional observations from a re-analysis of the deposited data

Results flagged for a closer look

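Wildtype replicate 4 stood apart from the other wildtype arrays for Nkx3-2 probe ILMN_2687592, at 4.84 on the log2 scale, with a gap to its nearest neighbour that was 0.862 of the range of the group, above Dixon's 95% critical value for 4 samples. The probe was not detected on this array. Of 52 groups examined, 1 was flagged, and chance flags about 1 in 20 groups. No member probe was flagged.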

How the results depend on the processing

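Of the 21 alternatives, 18 left the count of called member probes at 0. It was 2 with array weights (Sox2 and Msi1), 2 without both arrays that stood apart (Sox2 and Nes), and 0 to 1 when each array was left out in turn, where the call without null replicate 1 was Sox2. The adjusted p of Sox2 ranged from 0.0128 to 0.215 over the alternatives in which it was tested, and it did not enter the test when detection was set at p below 0.01. Sox21 reversed to -0.49 with array weights, -0.16 without null replicate 1 and -0.36 without both arrays, and it was -0.16 to 0.54 when each array was left out. The cause was not tested. The count of called probes, 156, was 99 with a floor of 16, 1 with scaling by the median absolute deviation, 75 without a filter, 16 in the log2 table, 6190 with array weights, 12 without moderation, 4048 without both arrays, 28 with a floor of 1, 69 with a floor of 1 and the further null array, and 21 to 3185 when each array was left out. Median centring moved the median difference of all probes to 0.19 and the share of calls that were higher from 49.4% to 79.8%, and there Sox2 was at 0.78, Sox21 at 0.53, Nes at 0.67 and Msi1 at -0.52. This share was 18.8% in the log2 table, and the 1 call of the scaling by median absolute deviation was lower. The difference of Nkx3-2 kept its direction and no longer passed the threshold at 2.48 with a floor of 16, 1.36 with an offset of 50, 2.11 with scaling by the median absolute deviation, 2.22 without a filter and without moderation, 4.45 in the log2 table, and 5.13 and 4.80 with a floor of 1 without and with the further null array. It was 1.96 to 2.66 when each array was left out (adjusted p = 0.00196 to 0.134, limma). Over all alternatives the genes called numbered 0 to 4 in the spinal progenitor domain list, 0 to 1 among other proneural factors, 0 to 4 among other neural progenitor genes, 0 to 7 among neuron markers, 0 to 3 among neural crest markers, 0 to 4 among endothelial markers, 0 to 3 among pericyte markers and 0 to 12 among sclerotome and cartilage markers.

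Same-numbered wildtype and null arrays did not deviate together (correlations of -0.0492, -0.107, -0.195 and 0.0356). This does not settle whether samples were paired, since the deposited tables number the null arrays differently. With the replicate block 20 probes and 0 member probes were called, the difference of Nkx3-2 was 2.22 (limma, adjusted p = 0.0803), and the adjusted p was 0.159 for Sox2, 0.194 for Msi1, 0.336 for Nes and 0.724 for Sox21 (limma).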

Other observations

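The log2 table holds 1 null array that matched no column of the intensity table. Over 16345 probes detected on all arrays it correlated at 0.983 with null replicate 1, at 0.969 to 0.972 with the other null arrays and at 0.950 to 0.978 with the wildtype arrays. On the scale of log2 intensity floored at 1 and centred on the median of the array, Sox2 probe ILMN_1248711 was at 1.60 on this array, while the wildtype arrays were at 0.40, 0.66, -0.17 and -0.03 and the other null arrays at 2.36, 1.51, 2.03 and 1.27. All 5 null arrays thus lay above all 4 wildtype arrays for this probe. The share of all probes with this pattern was not counted. With the further array added the adjusted p was 0.0512, against 0.0927 for the 8 arrays on the same scale (limma). The calls over all tested probes rose from 28 to 69 between these fits. The other Sox2 probe, ILMN_2656102, was at -1.74 on the further array. For that probe the wildtype arrays were at 0.08, 1.04, -2.89 and 0.89 and the other null arrays at 1.11, 0.55, -0.15 and -1.26. Msi1 was at 2.26 on the further array, within the wildtype range of 0.88 to 2.56 and above the other null arrays (0.61 to 1.43). With this array added the difference of Msi1 went from -1.01 (limma, adjusted p = 0.284) to -0.74 (limma, adjusted p = 0.421). Nes probe ILMN_2703267 was at 5.55, Sox21 probe ILMN_1254295 at 3.01, and Sox1, both Sox3 probes and the traced Pax6 probe were at the floor of -2.94.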
